A study of Sus scrofa with 12 samples.

Results

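The genes described here encode the ligands, receptors, secreted antagonists and SMAD transducers of the WNT and TGF-beta families, as measured in the endometrium (the lining of the uterus) of sows. They were taken by symbol: WNT ligands, FZD receptors, SFRP, FRZB and DKK antagonists and LRP co-receptors on one side, and BMP, TGFB, INHB, ACVR, SMAD, FST and GREM symbols on the other. The symbols matched 32 of the 6765 genes that had a probe set with a single gene symbol, 10 of the WNT family and 22 of the TGF-beta family. No FRZB or GREM gene was among them, nor were TGFBR2, SMAD2, BMP2 or BMPR2, so the 32 genes are only a part of each family. Where several probe sets stood for a gene, the one with the highest mean over the 12 arrays was used, and it was so for 16 of the 32.

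Tissue came from 12 sows killed on Day 14 after insemination. In 6 sows the semen had led to pregnancy, and the other 6 had received inactivated semen and were not pregnant. The pregnant sows were 3 Yorkshire (sows 2, 4 and 12) and 3 Landrace (sows 6, 8 and 10), and the non-pregnant sows were 3 Yorkshire (sows 1, 3 and 11) and 3 Landrace (sows 5, 7 and 9). Each sow gave 1 Affymetrix array, hybridised with RNA from pieces along both horns that held the epithelium and the connective tissue beneath it but no muscle layer. The horns had been rinsed before sampling, and the attachment sites of the embryos were visible as reddened zones in the pregnant uteri, per the labels' protocols.

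WNT proteins bind FZD receptors together with LRP co-receptors and stabilise beta-catenin, which drives transcription with TCF and LEF factors; SFRP proteins capture the ligand, and DKK proteins block the co-receptor. TGF-beta, activin and BMP ligands assemble type I and type II receptor kinases, which phosphorylate SMAD1-type proteins for the BMP branch and SMAD3-type proteins for the TGF-beta and activin branch before both join SMAD4. In the uterus these pathways take part in gland formation, in the remodelling of the stroma and in the dialogue between epithelium, stroma and the attaching conceptus.

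The deposited values were log2 expression, on which a difference of 1 is a doubling, and the medians of the 12 arrays lay between 6.25 and 6.30. INHBB, a subunit of activin, was below the lower quartile of the array (4.58 to 4.71) on all 12 arrays, and ACVR2B, an activin receptor, on 5, so that differences of these 2 genes are compressed by background. WNT10B, TGFB3, BMP7, BMP15 and ACVR2A were above the array median on none of the 12 arrays and TGFB1 on 2, and their differences may be compressed too. Markers of epithelium (mean log2 9.60 to 10.36 over 9 genes) and of stromal fibroblasts (9.49 to 10.36 over 8 genes) were present on every array, as the tissue label requires. Smooth muscle markers were also present (7.97 to 8.79 over 8 genes), although the label names no muscle layer. Which cells they came from was not tested. Non-pregnant sow 7 stood apart from the other sows on the second principal component (43.5, with the rest between -29.6 and 21.2) and had the highest level of leukocyte markers (mean log2 7.98, against 5.69 to 6.26 in the other 11 sows). Pregnant sow 12 lay at -18.9 on the first principal component, with the other pregnant sows between 15.5 and 43.8, and correlated most with non-pregnant sow 11. Trophoblast markers were at 7.08 in pregnant sow 10 and 5.51 in pregnant sow 6, and between 4.54 and 5.12 in the remaining sows.

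Pregnant were first compared with non-pregnant sows of both breeds. A WNT receptor, FZD4, and a pair of TGF-beta family receptors, TGFBR3 and ACVR1, were higher in pregnant sows, by 0.62, 0.80 and 0.42 on the log2 scale. These were 3 of the 32 genes called higher (limma, adjusted p under 0.05 over all 23999 probe sets), where 4.58% of all 6765 genes were called higher. None of the 32 was called lower, against 7.48% of all genes. Before adjustment, p was under 0.05 for 12 of the 32 genes (37.5%) and for 31.3% of all genes, so the share of the 2 families was near that of the array. The median difference of the 32 genes was 0.06, against -0.03 over all genes, and the median absolute difference was 0.18, against 0.15.

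**Figure D1:**
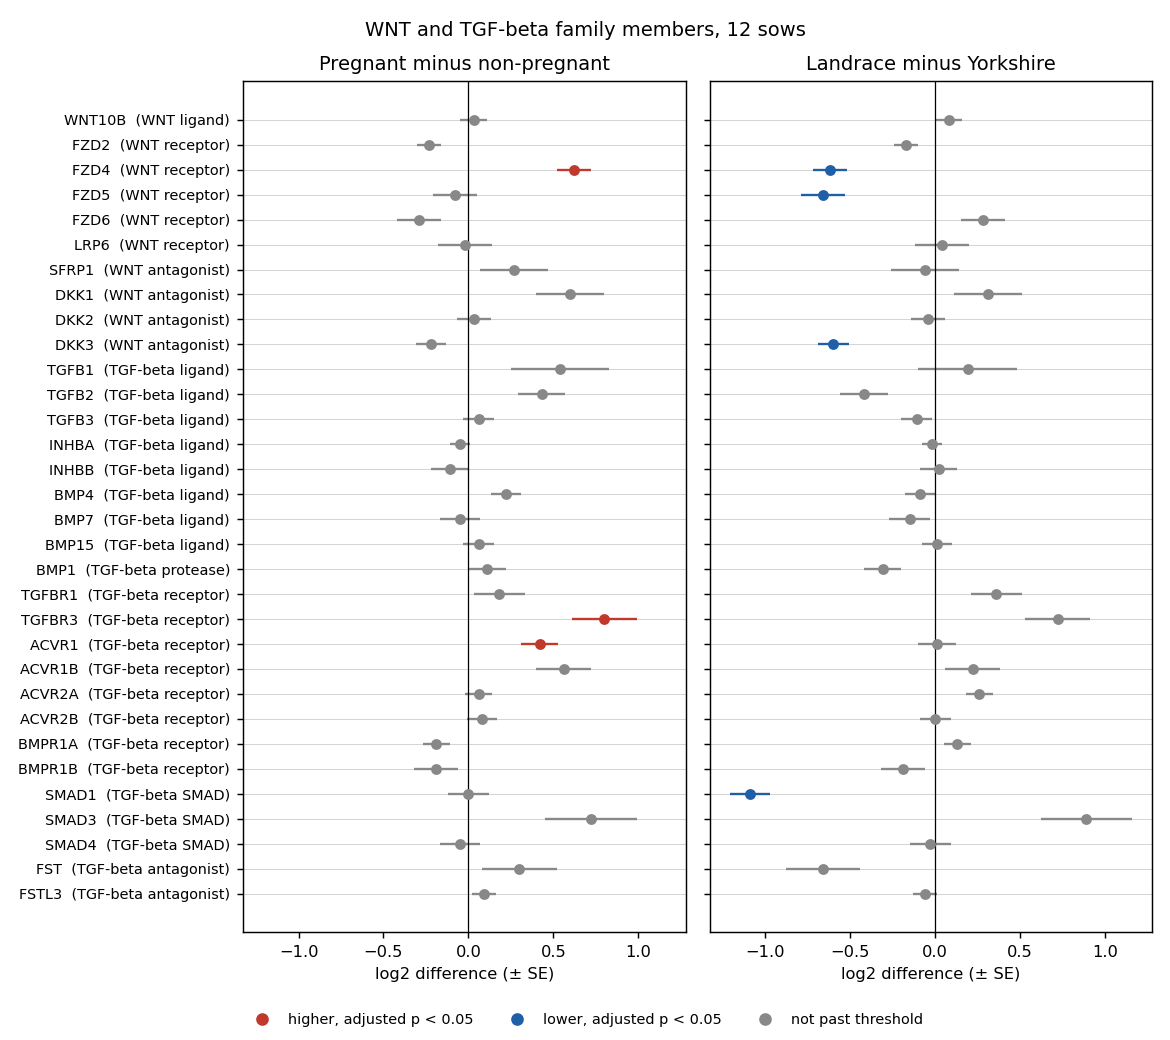
Log2 difference (± SE) of each of the 32 genes between pregnant and non-pregnant sows (left) and between Landrace and Yorkshire sows (right), 6 sows a group, ordered by family and role. Red and blue mark genes called higher or lower at an adjusted p under 0.05: FZD4, TGFBR3 and ACVR1 for pregnancy, and FZD4, FZD5, DKK3 and SMAD1 for breed.

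Among the WNT receptors, FZD4, which also binds the growth factor norrin and is needed for vessel growth in the mouse retina, had the smallest adjusted p of the 32 genes. Its log2 expression was 7.67, 7.60 and 7.69 in the non-pregnant Yorkshire sows 1, 3 and 11, and 8.37, 8.51 and 7.97 in the pregnant Yorkshire sows 2, 4 and 12. In Landrace it was 6.86, 7.24 and 7.03 in the non-pregnant sows 5, 7 and 9, and 7.87, 7.53 and 7.55 in the pregnant sows 6, 8 and 10. Within each breed every pregnant sow was above every non-pregnant sow, while the pooled groups overlapped because pregnant Landrace sows stood at the level of non-pregnant Yorkshire sows (7.65 ± 0.19 and 7.65 ± 0.04, SD, n = 3 each). The mean of FZD4 over both breeds was 7.97 ± 0.41 (SD, n = 6) with pregnancy and 7.35 ± 0.35 (SD, n = 6) without, a difference of 0.62 ± 0.10 (SE) or 1.54-fold (limma adjusted p = 0.00694). With no term for breed FZD4 was not called for pregnancy (limma adjusted p = 0.0958). A second FZD4 probe set differed by 0.39 (limma adjusted p = 0.0229). The tissue held many cell types, so more cells with FZD4 mRNA and more of it per cell cannot be told apart, which applies to every difference described here.

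The other WNT receptors were not called. FZD2 was 6.36 to 6.79 (median 6.60) in pregnant and 6.68 to 6.96 (median 6.77) in non-pregnant sows, with all 6 pregnant values under the mean of the others and a difference of -0.23 (95% interval -0.39 to -0.07, limma adjusted p = 0.0799). FZD6, which acts in planar cell polarity, differed by -0.29 (-0.57 to 0.00, adjusted p = 0.213). For FZD5 the difference was -0.08 (-0.36 to 0.20) and for the co-receptor LRP6 it was -0.02 (-0.37 to 0.32), and neither interval shows that the level was unchanged. WNT10B, the 1 WNT ligand among the 32 genes, differed by 0.03 (-0.14 to 0.19), at a low mean log2 level of 4.92.

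Among the secreted WNT antagonists, DKK1, which binds LRP6 and blocks signalling, was 8.21, 7.64 and 8.27 in non-pregnant Yorkshire sows 1, 3 and 11, and 9.04, 8.69 and 9.09 in pregnant Yorkshire sows 2, 4 and 12. Landrace values were 8.76, 8.89 and 8.28 in non-pregnant sows 5, 7 and 9, and 9.55, 8.59 and 8.71 in pregnant sows 6, 8 and 10. All 6 pregnant sows lay above the non-pregnant mean, and the highest non-pregnant sows were Landrace sows 5 and 7. The difference of 0.60 ± 0.20 did not pass the threshold (limma adjusted p = 0.0855), and it did so without pregnant sow 8 (adjusted p = 0.0381). This was the 1 call in the 12 fits without 1 sow, and limma adjusted p reached 0.181. DKK3, a diverged relative of DKK1 whose receptor interactions differ from it, had a difference of -0.22 (95% interval -0.43 to -0.02, adjusted p = 0.174), SFRP1 of 0.27 (-0.16 to 0.70) and DKK2 of 0.03 (-0.19 to 0.25).

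TGFBR3, also called betaglycan, is a membrane proteoglycan that presents TGF-beta2 and inhibin to the signalling receptors. It was 5.96, 4.82 and 5.99 in non-pregnant Yorkshire sows 1, 3 and 11, and 6.05, 6.12 and 6.36 in pregnant Yorkshire sows 2, 4 and 12. In Landrace it was 5.93, 6.0 and 6.36 in non-pregnant sows 5, 7 and 9, and 6.93, 7.11 and 7.29 in pregnant sows 6, 8 and 10. The groups did not overlap within either breed, although the Yorkshire ranges came close (5.99 and 6.05), and the 3 pregnant Landrace sows were above all others. The difference was 0.80 ± 0.19 (6.64 ± 0.53 against 5.84 ± 0.52, SD, n = 6), or 1.75-fold (limma adjusted p = 0.0259). It missed the threshold when non-pregnant sow 5, pregnant sow 6 or pregnant sow 10 was left out (adjusted p up to 0.0604), without sows 7 and 12 together (adjusted p = 0.0533), and with no term for breed (adjusted p = 0.113).

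ACVR1 is a type I receptor through which BMPs activate SMAD1, and its loss from the mouse uterus impairs the decidual reaction of the stroma. It was 7.32, 7.39 and 7.85 in non-pregnant Yorkshire sows 1, 3 and 11, and 8.0, 7.75 and 7.79 in pregnant Yorkshire sows 2, 4 and 12. Among Landrace sows it was 7.56, 7.40 and 7.33 in non-pregnant sows 5, 7 and 9, and 8.26, 7.77 and 7.84 in pregnant sows 6, 8 and 10. A single non-pregnant sow, sow 11 at 7.85, reached into the pregnant range, and pregnant sow 6 was the highest. The difference was 0.42 ± 0.11 (7.90 ± 0.20 against 7.48 ± 0.20, SD, n = 6), or 1.34-fold (limma adjusted p = 0.0432), and a second ACVR1 probe set differed by 0.44 (limma adjusted p = 0.0184). The call for the first probe set was close to the threshold and was lost in 9 of the 12 fits that left out 1 sow (sows 1, 2, 3, 4, 5, 6, 7, 9 and 10), with adjusted p up to 0.0998. It was also lost with the arrays centred on their medians (limma adjusted p = 0.0519) and without sows 7 and 12 together (limma adjusted p = 0.0602).

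ACVR1B, the type I receptor of activin and nodal, had a larger but more scattered difference. Its values were 9.40, 9.28 and 8.42 in pregnant Yorkshire sows 2, 4 and 12, 9.33, 8.94 and 9.44 in pregnant Landrace sows 6, 8 and 10, and 8.28 to 8.85 (median 8.57) in the non-pregnant sows. Pregnant sow 12 was within the non-pregnant range and the other 5 pregnant sows were above it. The difference of 0.56 ± 0.16 had an adjusted p of 0.0528 in limma, and without pregnant sow 12 it was 0.69 (adjusted p = 0.00649). Of the 12 fits without 1 sow 2 called it (without sow 8 or 12), and limma adjusted p reached 0.118. The remaining 5 receptors were not called: TGFBR1 differed by 0.18 (95% interval -0.15 to 0.52), ACVR2A by 0.06 (-0.11 to 0.24), ACVR2B by 0.08 (-0.10 to 0.27), BMPR1A by -0.19 (-0.36 to -0.01) and BMPR1B by -0.19 (-0.48 to 0.10).

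None of the 8 ligand genes of the TGF-beta family was called for pregnancy. TGFB2 was 6.57 to 7.48 (median 6.79) in pregnant and 5.84 to 6.81 (median 6.58) in non-pregnant sows, with a difference of 0.43 ± 0.14 (limma adjusted p = 0.0822). TGFB1 was 5.56 to 6.39 in pregnant sows and 4.82 to 5.54 in 5 of the non-pregnant sows, while non-pregnant sow 7 was above all others at 6.79. Over all sows the TGFB1 difference was 0.54 ± 0.29 (adjusted p = 0.286), and without sow 7 it was 0.83 (adjusted p = 0.0121). This was the 1 call in the 12 fits without 1 sow, and limma adjusted p reached 0.477. A second TGFB1 probe set differed by 0.13 (limma adjusted p = 0.638) and lay below the lower quartile on all 12 arrays. Sow 7 was also the sow with the high leukocyte markers, and their part in its TGFB1 level was not tested.

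BMP4, a ligand of the BMP branch, differed by 0.22 (95% interval 0.01 to 0.42, limma adjusted p = 0.185). For TGFB3, INHBA, INHBB, BMP7 and BMP15 the differences lay between -0.11 and 0.06 and every interval included 0. BMP1, which carries the family name but is a protease that trims procollagen, differed by 0.11 (-0.12 to 0.35).

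SMAD3, the transducer of TGF-beta and activin, had a wider spread between sows (SE of the difference 0.27) than SMAD1 and SMAD4 (0.12 each). It was 5.87, 5.58 and 5.04 in non-pregnant Yorkshire sows 1, 3 and 11, and 7.10, 7.02 and 5.67 in pregnant Yorkshire sows 2, 4 and 12. In Landrace it was 6.81, 6.91 and 6.57 in non-pregnant sows 5, 7 and 9, and 7.27, 6.54 and 7.49 in pregnant sows 6, 8 and 10. Sows 11 and 12 were among the 3 lowest, although 1 was pregnant and the other was not, and pregnant and non-pregnant ranges overlapped in both breeds. The difference of 0.72 ± 0.27 was not called (limma adjusted p = 0.131), and without sows 7 and 12 it was 0.99 (adjusted p = 0.0334). That fit called 510 of all genes higher, instead of 310. No fit without 1 sow called SMAD3 (limma adjusted p 0.0503 to 0.266).

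SMAD1 (0.00, 95% interval -0.27 to 0.27) and SMAD4 (-0.05, -0.31 to 0.21) showed no difference that passed the test. Of the antagonists that bind activin, FST (follistatin) differed by 0.30 (-0.18 to 0.78) and FSTL3 by 0.09 (-0.06 to 0.24), neither called.

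Endothelial markers moved with pregnancy in the same samples. Of the 9 measured markers 6 were called higher (CDH5, VWF, KDR, TEK, TIE1 and ERG) and none lower, their mean log2 level was 7.24 to 7.79 in pregnant and 6.57 to 7.10 in non-pregnant sows without overlap, and none of the 9 was below the lower quartile on every array. Of the stromal markers 4 of 8 were called higher and 1 lower (9.75 to 10.36 against 9.49 to 10.06), and of the epithelial markers 1 of 9 was higher and 2 lower (9.60 to 10.32 against 10.14 to 10.36). Of the smooth muscle markers 1 of 8 was higher and 0 lower (8.18 to 8.79 against 7.97 to 8.36). Over all genes 4.58% were called higher and 7.48% lower. Median differences were 0.65 (endothelial), 0.3 (stromal), 0.34 (smooth muscle) and -0.47 (epithelial), against -0.03 over all genes. Of the trophoblast markers 0 of 7 were called. Their mean log2 level was 7.08, 5.51 and 4.86 in pregnant Landrace sows 10, 6 and 8. TGFBR3 was 7.29, 6.93 and 7.11 in the same sows. The part of these cell types in the differences of FZD4, TGFBR3 and ACVR1 was not tested.

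**Figure D2:**
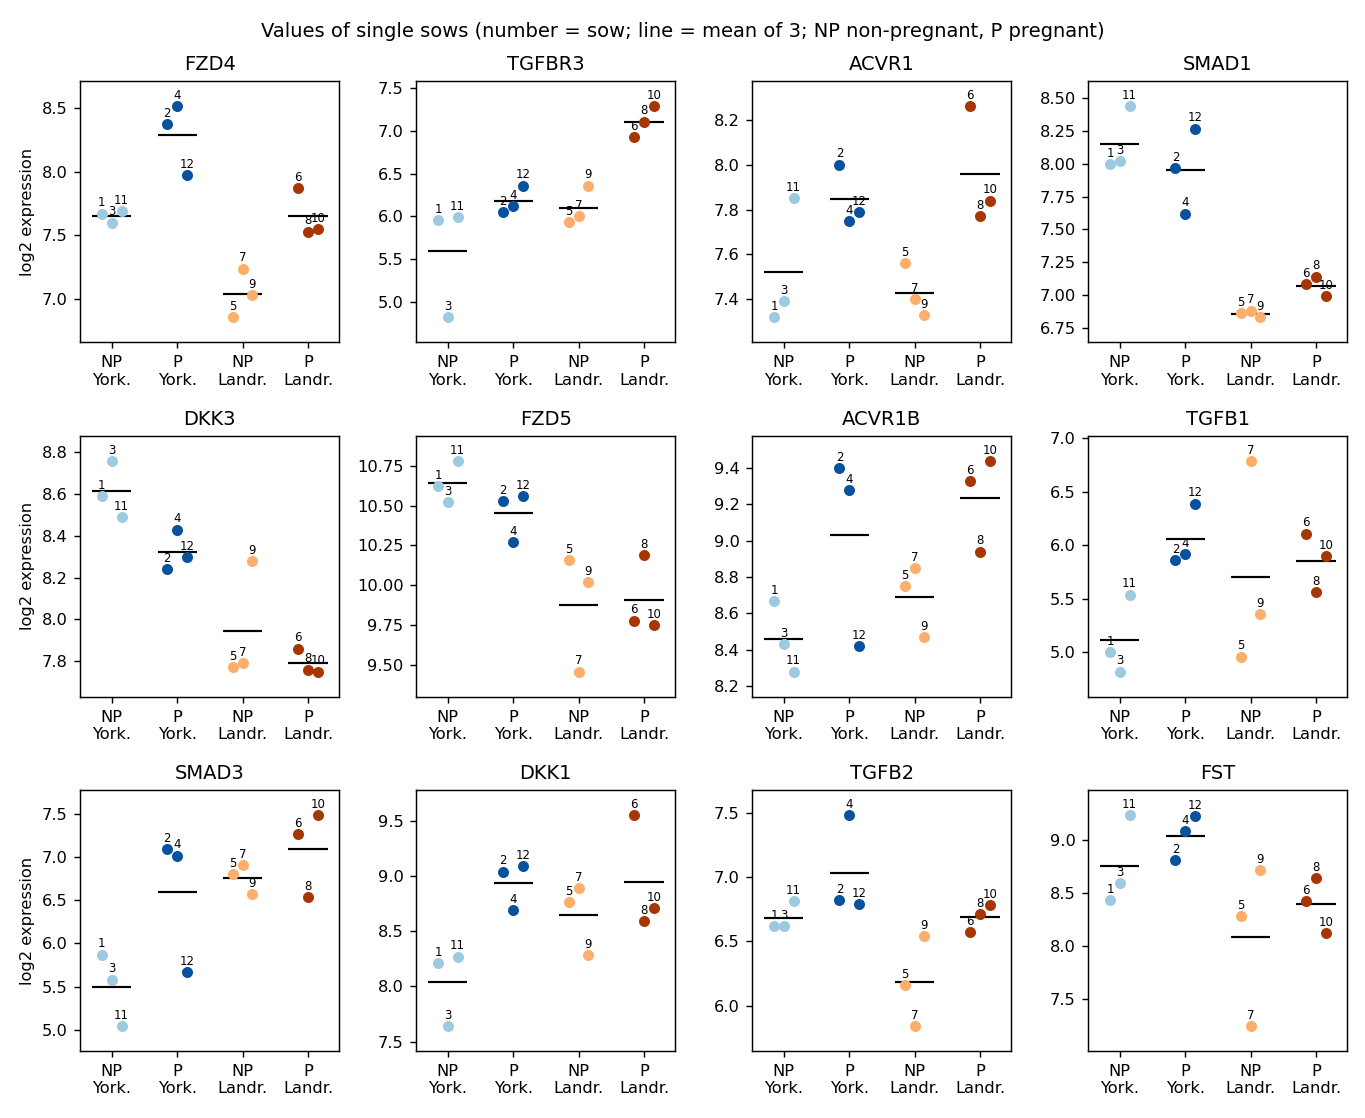
Log2 expression of 12 of the genes in each of the 12 sows (points, numbered by sow) by pregnancy and breed, with the mean of the 3 sows as a line; each panel has its own axis. FZD4 was higher in pregnant sows within each breed and lower in Landrace within each state, SMAD1 separated the breeds without overlap, and sow 7 stood above all other sows for TGFB1.

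None of the 32 genes had pregnant and non-pregnant ranges that were wholly apart over all 12 sows, where 4.54% of all genes had. Within both breeds at once, and in the same direction, the ranges were apart for FZD4 and TGFBR3, 2 of 32, where 9.30% of all genes had this pattern.

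The pregnancy difference was then taken within each breed, where 3 sows stood against 3. In Landrace none of the 32 genes was called by limma, against 0.813% of all genes called higher and 0.828% called lower; 6 of the 32 (18.8%) and 20.7% of all genes had an unadjusted p under 0.05. The smallest adjusted p values in Landrace were those of FZD4 (0.61 ± 0.15, adjusted p = 0.0844) and TGFBR3 (1.02 ± 0.27, adjusted p = 0.0932). In Yorkshire none of the 32 and none of the 6765 genes was called by limma, with 6 of the 32 (18.8%) and 1469 of all genes (21.7%) at an unadjusted p under 0.05. FZD4 differed by 0.64 ± 0.15 in Yorkshire (adjusted p = 0.115), DKK1 by 0.90 ± 0.27 (adjusted p = 0.157), SMAD3 by 1.10 ± 0.37 (adjusted p = 0.198) and TGFB1 by 0.94 ± 0.39 (adjusted p = 0.278). Without pregnant sow 12, which left 2 pregnant Yorkshire sows, FZD4, ACVR1B and SMAD3 were called within Yorkshire, where 232 of the 6765 genes were called higher and 306 lower. Within Landrace TGFBR3 was called without non-pregnant sow 3, where 38 of all genes were called higher and 43 lower. FZD4 was called within Landrace without pregnant sow 12, where 109 of all genes were called higher and 131 lower. Sows 3 and 12 were Yorkshire, so the Landrace values and differences were the same in these fits. Only the spread, which is estimated over all sows, and the adjustment changed.

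Whether the pregnancy difference itself differed between breeds was tested by the interaction, which called none of the 32 and none of all genes (limma). An unadjusted p under 0.05 was found for 1 of the 32 genes (3.12%) and for 4.97% of all genes. That gene was DKK2, an antagonist of the WNT co-receptor. Its values were 8.48, 8.49 and 8.69 in non-pregnant and 8.22, 8.30 and 8.61 in pregnant Yorkshire sows, and 8.33, 8.17 and 8.42 in non-pregnant and 8.65, 8.49 and 8.50 in pregnant Landrace sows. The pregnancy difference of DKK2 was -0.18 in Yorkshire and 0.24 in Landrace, and these differed by 0.42 ± 0.17 (limma adjusted p = 1). The next smallest were those of SMAD1, whose pregnancy difference was -0.21 in Yorkshire and 0.21 in Landrace (interaction 0.42, 95% interval -0.08 to 0.91, adjusted p = 1), and of DKK1, at 0.90 and 0.31 (interaction -0.59, -1.42 to 0.23, adjusted p = 1). The intervals are wide, and they do not show that the breeds responded alike.

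**Figure D3:**
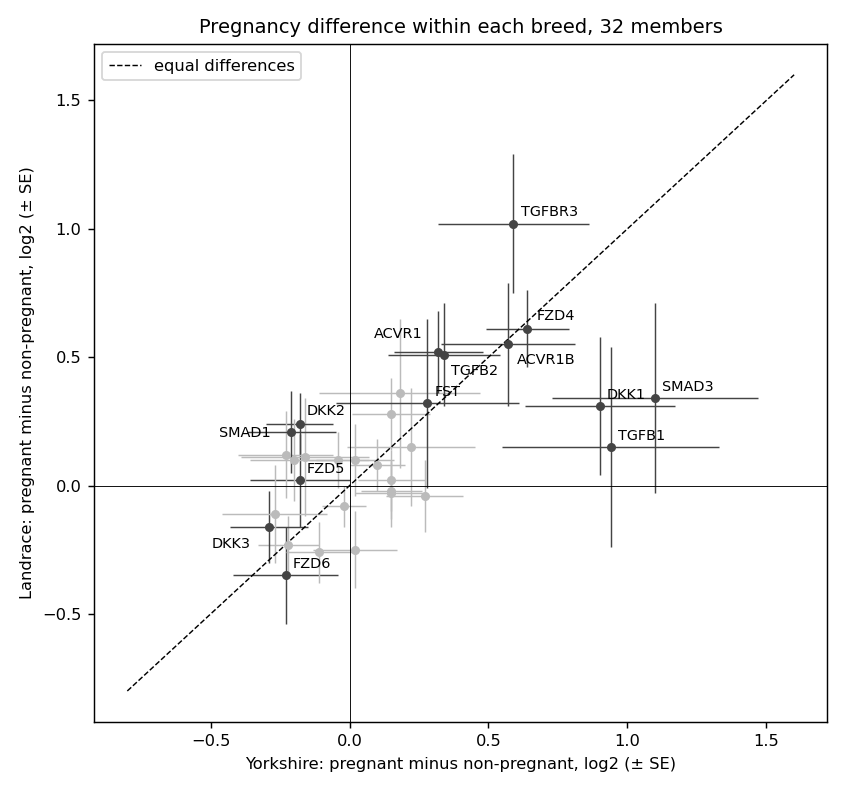
Pregnancy difference (log2, ± SE) of the 32 genes within Yorkshire (horizontal) and within Landrace (vertical), 3 pregnant against 3 non-pregnant sows in each breed; the dashed line marks equal differences. FZD4 lies on the line at 0.64 and 0.61, TGFBR3 above it at 0.59 and 1.02, and DKK1, SMAD3 and TGFB1 below it; no departure from the line passed the interaction test.

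The breeds were compared over both states of pregnancy. SMAD1, DKK3, FZD4 and FZD5 were lower in Landrace than in Yorkshire sows, by 1.09, 0.60, 0.62 and 0.66 on the log2 scale. These were 4 of 32 genes called lower, where 3.24% of all genes were called lower (limma, adjusted p under 0.05); 3 of the 4 belong to the 10 WNT family genes. None of the 32 was called higher in Landrace, against 2.03% of all genes. An unadjusted p under 0.05 was found for 12 of the 32 (37.5%) and for 21.9% of all genes, and the median absolute difference was 0.18, against 0.12 over all genes. No test was made of whether the families as a whole differed from other genes.

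SMAD1, the transducer that BMP receptors phosphorylate, had the largest breed difference of the 32 genes. It was 8.0, 8.02 and 8.44 in non-pregnant Yorkshire sows 1, 3 and 11, and 7.97, 7.62 and 8.27 in pregnant Yorkshire sows 2, 4 and 12. The Landrace values were 6.86, 6.88 and 6.83 in non-pregnant sows 5, 7 and 9, and 7.08, 7.14 and 6.99 in pregnant sows 6, 8 and 10. The highest Landrace sow was 0.48 below the lowest Yorkshire sow, pregnant sow 4. SMAD1 was 6.96 ± 0.12 in Landrace and 8.05 ± 0.28 in Yorkshire sows (SD, n = 6), a difference of -1.09 ± 0.12 or 0.47-fold (limma adjusted p = 0.000635). The difference was called in non-pregnant sows alone (-1.30 ± 0.16, limma adjusted p = 0.00531) and in pregnant sows alone (-0.88 ± 0.16, limma adjusted p = 0.0348).

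DKK3 was 8.59, 8.76 and 8.49 in non-pregnant Yorkshire sows 1, 3 and 11, and 8.24, 8.43 and 8.30 in pregnant Yorkshire sows 2, 4 and 12. For Landrace it was 7.77, 7.79 and 8.28 in non-pregnant sows 5, 7 and 9, and 7.86, 7.76 and 7.75 in pregnant sows 6, 8 and 10. A single Landrace sow, non-pregnant sow 9 at 8.28, reached the Yorkshire range, and the other 5 lay between 7.75 and 7.86. The difference was -0.60 ± 0.09 (7.87 ± 0.20 against 8.47 ± 0.19, SD, n = 6), or 0.66-fold (limma adjusted p = 0.00444), and in non-pregnant sows alone it was -0.67 ± 0.14 (limma adjusted p = 0.0472).

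FZD5, a WNT receptor of the intestinal epithelium in mice, was 10.62, 10.52 and 10.78 in non-pregnant Yorkshire sows 1, 3 and 11, and 10.53, 10.27 and 10.56 in pregnant Yorkshire sows 2, 4 and 12. In Landrace it was 10.16, 9.46 and 10.02 in non-pregnant sows 5, 7 and 9, and 9.78, 10.19 and 9.75 in pregnant sows 6, 8 and 10. The ranges did not overlap, although the lowest Yorkshire sow (sow 4, 10.27) was close to the highest Landrace sow (sow 8, 10.19), and sow 7 was the lowest of all. The difference was -0.66 ± 0.13 (9.89 ± 0.28 against 10.55 ± 0.16, SD, n = 6), or 0.63-fold (limma adjusted p = 0.0123).

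FZD4 was called for breed as well as for pregnancy. From its values given above, every Landrace sow was below every Yorkshire sow of the same state, and the breed difference was -0.62 ± 0.10, or 0.65-fold (7.35 ± 0.37 against 7.97 ± 0.39, SD, n = 6, limma adjusted p = 0.00597). With no term for pregnancy this breed difference was not called (limma adjusted p = 0.126). Its second probe set differed by -0.22 between breeds (limma adjusted p = 0.183), so the size of the breed difference depended on the probe set. The mean was 7.04 in non-pregnant Landrace, 7.65 in both pregnant Landrace and non-pregnant Yorkshire, and 8.29 in pregnant Yorkshire sows, and the interaction was -0.03 (95% interval -0.50 to 0.44).

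Ranges of the 6 Landrace and 6 Yorkshire sows were apart for SMAD1 and FZD5, 2 of 32, where 2.88% of all genes had this pattern. Within both states of pregnancy at once, and in the same direction, they were apart for SMAD1, DKK3, FZD4, FZD5 and TGFB2, 5 of 32, where 6.15% of all genes had it. In non-pregnant sows alone limma called 2 of 32 genes lower in Landrace (SMAD1 and DKK3), where 0.798% of all genes were called lower and 0.429% higher. In pregnant sows alone it called 1 of 32 lower (SMAD1), where 0.443% of all genes were called lower and 0.148% higher.

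The genes with larger values in Landrace did not pass the test. TGFBR3 differed by 0.72 ± 0.19 (6.60 ± 0.59 against 5.88 ± 0.54, SD, n = 6, limma adjusted p = 0.0505), and it was called without non-pregnant sow 1 or sow 11 (adjusted p down to 0.0318). Its other fits without 1 sow did not call it, with limma adjusted p up to 0.112. SMAD3 differed by 0.89 ± 0.27 (6.93 ± 0.38 against 6.05 ± 0.83, adjusted p = 0.0856), and it was called without pregnant sow 2 or sow 8 (adjusted p down to 0.0379). The other fits without 1 sow did not call SMAD3, with limma adjusted p up to 0.168. ACVR2A, a type II receptor of activin, differed by 0.26 ± 0.08 (adjusted p = 0.0868), and all 6 Landrace sows lay above the Yorkshire mean.

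Among the genes with lower values in Landrace that were not called, FST was 7.24 to 8.71 (median 8.35) in Landrace and 8.43 to 9.23 (median 8.94) in Yorkshire sows, a difference of -0.66 ± 0.22 (limma adjusted p = 0.112), with sow 7 the lowest. TGFB2 differed by -0.42 ± 0.14 (adjusted p = 0.102) and BMP1 by -0.31 ± 0.11 (adjusted p = 0.125). For SMAD4 (-0.03), ACVR1 (0.01), ACVR2B (0.00), BMP15 (0.01), INHBA (-0.02), INHBB (0.02), DKK2 (-0.04) and LRP6 (0.04) the differences between breeds lay between -0.04 and 0.04, and for LRP6 the 95% interval ran from -0.31 to 0.38.

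A measure of RNA integrity also separated the breeds. The difference between the 3′ and 5′ GAPDH control probe sets, which grows as RNA is degraded or labelled incompletely, was 0.379 to 0.538 in Landrace and 0.545 to 0.773 in Yorkshire sows, without overlap (mean difference -0.232, exact permutation p = 0.00216, two-sided, the smallest that 6 against 6 can give). It did not separate pregnant from non-pregnant sows (mean difference 0.0581, exact permutation p = 0.487). With it as a covariate none of the 32 genes was called for breed: SMAD1 differed by -0.93 ± 0.26 (limma adjusted p = 0.283), FZD4 by -0.73 ± 0.22 (0.327), DKK3 by -0.54 ± 0.20 (0.443) and FZD5 by -0.61 ± 0.27 (0.527). Of all 6765 genes that fit called 2 higher and 1 lower in Landrace, instead of 137 and 219. Breed and this measure cannot be told apart in these 12 sows.

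For pregnancy the same covariate left FZD4 called (0.65, limma adjusted p = 0.0156), added ACVR1B (0.66, adjusted p = 0.0425), and ended the calls of TGFBR3 (0.75, adjusted p = 0.0611) and ACVR1 (0.38, adjusted p = 0.0942).

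Further genes of both pathways were read from lists of components and of textbook target genes. Of 49 other WNT pathway genes, 9 were measured and none was called for pregnancy (median difference -0.06, against -0.03 over all genes). CTNNB1, which encodes beta-catenin, was 11.65 to 12.45 in pregnant and 11.91 to 12.37 in non-pregnant sows, a difference of -0.15 ± 0.13 (limma adjusted p = 0.571). Between breeds 1 of the 9 was called, TCF7L1, a mostly repressing TCF factor, at 5.35 to 6.60 in Landrace and 6.64 to 7.27 in Yorkshire sows without overlap (-0.86 ± 0.21, limma adjusted p = 0.0318). The TCF7L1 call was lost in 6 of the 12 fits that left out 1 sow (sows 1, 5, 8, 10, 11 and 12; adjusted p up to 0.0723), and without sows 7 and 12 together (-0.63, adjusted p = 0.0889).

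Of 6 measured WNT target genes out of 19, 1 was called for pregnancy and none for breed. This was FGF9, a growth factor of the endometrium that has also been described as a WNT target, at 5.77 to 6.93 in pregnant and 4.97 to 5.56 in non-pregnant sows without overlap (1.10 ± 0.18, limma adjusted p = 0.00672). LEF1, MYC, MMP7, PPARD and SOX9 were not called in either comparison.

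Of 52 other TGF-beta superfamily genes, 17 were measured. CRIM1, a membrane protein that tethers BMPs, was the 1 called for pregnancy, lower at 9.33 to 10.82 (median 10.05) in pregnant than at 10.53 to 11.59 (median 10.99) in non-pregnant sows (-1.0 ± 0.24, limma adjusted p = 0.0298). The CRIM1 call was lost in 7 of the 12 fits that left out 1 sow (sows 2, 3, 4, 5, 6, 9 and 11; adjusted p up to 0.0733). None of the 17 was called for breed, where the decoy receptor BAMBI differed by 0.56 ± 0.16 (adjusted p = 0.0664), and the medians were 0.00 for pregnancy and 0.02 for breed.

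Of 23 TGF-beta and BMP target genes, 14 were measured, of which 1 was called higher and 1 lower in pregnant sows (median 0.08). FN1, the matrix protein fibronectin, was 10.43 to 11.33 in pregnant and 9.75 to 10.67 in non-pregnant sows (0.76 ± 0.16, limma adjusted p = 0.0177). With the median of its probe sets the FN1 difference was 0.34 and was not called (limma adjusted p = 0.159). ID2, an inhibitor of basic helix-loop-helix factors that BMP signalling induces, was 6.54 to 7.41 (median 6.82) in pregnant and 6.96 to 8.44 (median 7.53) in non-pregnant sows. The ranges overlapped, and the difference was -0.79 ± 0.16 (limma adjusted p = 0.0139), not called with no term for breed (adjusted p = 0.078). The other ID genes had differences of -0.83 ± 0.36 (ID1, adjusted p = 0.189), -0.32 ± 0.15 (ID3, 0.233) and -0.67 ± 0.27 (ID4, 0.160), none called.

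For breed 2 of the 14 targets were called, both lower in Landrace. ID2 was 6.54 to 7.56 in Landrace and 6.95 to 8.44 in Yorkshire sows (-0.65 ± 0.16, limma adjusted p = 0.0365), a call lost in 8 of the 12 fits without 1 sow (sows 1, 3, 5, 6, 7, 8, 10 and 12; adjusted p up to 0.0793) without sows 7 and 12 together (adjusted p = 0.124), and with no term for pregnancy (adjusted p = 0.243). COL1A2, a chain of collagen I and also one of the stromal markers, was 8.34 to 9.23 in Landrace and 9.18 to 9.98 in Yorkshire sows (-0.77 ± 0.18, limma adjusted p = 0.0266), a call lost without sow 1, 4, 5, 10 or 11 (adjusted p up to 0.0631) and with the median of its probe sets (-0.73, adjusted p = 0.146). The other ID genes were not called for breed. Their means in Landrace and Yorkshire sows were 9.49 and 9.89 (ID1), 10.17 and 10.18 (ID3), and 7.13 and 7.44 (ID4).

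Of 13 genes known from mice as partners of WNT and BMP signalling at implantation, 8 were measured; 1 was called for pregnancy and 2 for breed, all lower. The oestrogen receptor ESR1 was lower in pregnant sows without overlap, at 6.73 to 7.26 against 7.28 to 7.93 (-0.58 ± 0.14, limma adjusted p = 0.0257); the call was lost without sow 2, 5, 6, 9 or 10 (adjusted p up to 0.0654) and with the GAPDH covariate (-0.54, adjusted p = 0.0608). MSX1, a homeobox factor of the uterine epithelium, was 8.58 to 9.70 in pregnant and 9.17 to 10.38 in non-pregnant sows (-0.60 ± 0.17, adjusted p = 0.0569). For breed, the progesterone receptor PGR was lower in Landrace without overlap, at 6.02 to 6.44 against 6.58 to 6.84 (-0.40 ± 0.07, limma adjusted p = 0.00906). WT1, a transcription factor of the stroma, was also lower in Landrace, at 6.04 to 6.47 against 6.37 to 6.84 with overlap (-0.40 ± 0.09, limma adjusted p = 0.0287). The WT1 call was lost in 8 of the 12 fits without 1 sow (sows 1, 4, 5, 7, 8, 10, 11 and 12; adjusted p up to 0.0665) and without sows 7 and 12 together (adjusted p = 0.113). With the GAPDH covariate the breed calls of all 5 list genes were lost in limma: ID2 differed by -1.03 (adjusted p = 0.344), COL1A2 by -0.90 (0.498), TCF7L1 by -0.31 (0.848), PGR by -0.21 (0.678) and WT1 by -0.23 (0.738).

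**Figure D4:**
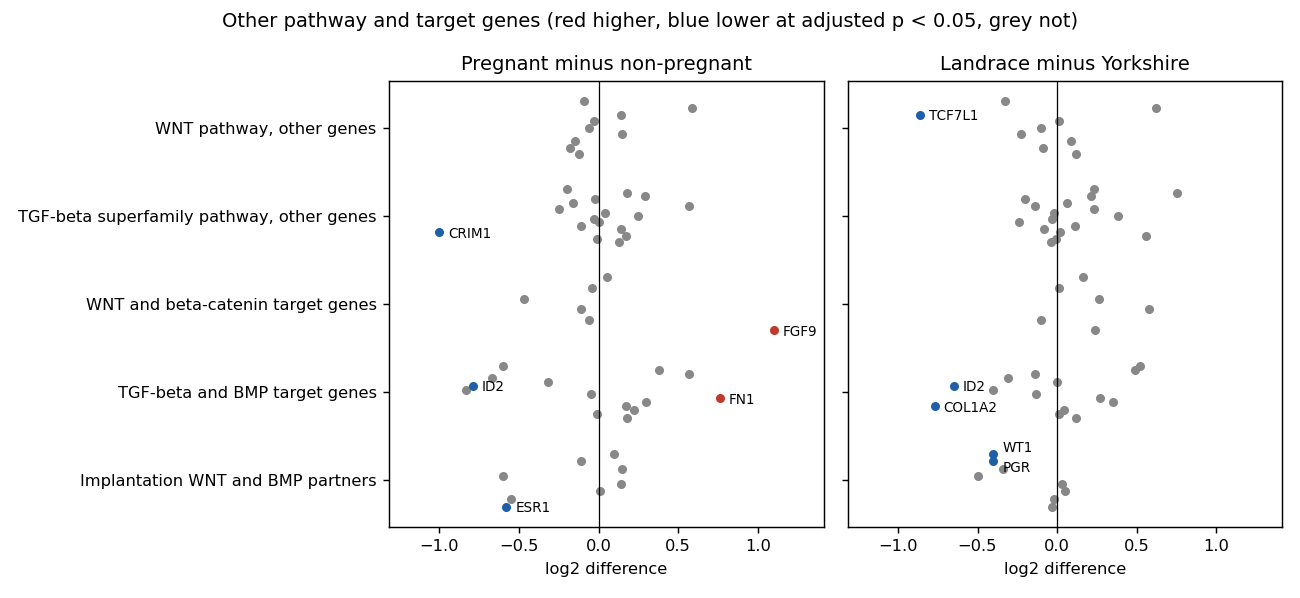
Log2 difference of each measured gene on 5 lists of other pathway genes, target genes and implantation partners for pregnancy (left) and breed (right); points are genes, coloured by the call, and called genes are named. FGF9 at 1.10 and CRIM1 at -1.0 lie at the ends of the pregnancy panel, and all genes called for breed lie below 0.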

How the data were processed

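Endometrial RNA of 12 sows was measured on Affymetrix porcine arrays, 1 array and 1 replicate per sow. The deposited values are log2 expression per probe set. The submitters' processing notes name RMA, affy and limma, without versions. RMA makes the arrays' distributions alike, so a difference is relative to the rest of an array, and low values are compressed by background. A genome build was not given in the sources used here. Of 24123 probe sets, 124 manufacturer controls were left out and 23999 tested, of which 10069 had a single symbol in the platform annotation. All 32 genes matched the RefSeq gene table by gene ID with unchanged symbols.

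Pregnancy and breed were fitted together with limma 3.58.1 (R 4.3.3; lmFit, then eBayes, two-sided; 9 residual degrees of freedom), and effects within breeds or states and the interaction with 4 group means (8 residual degrees of freedom), with Benjamini-Hochberg adjustment over 23999 probe sets and a threshold of 0.05. The scripts were tested on simulated data. Genes given in full were those called in any comparison and the 3 with the smallest interaction p; SMAD3 and the pregnant sows for ACVR1B were also given by sow, chosen after their values were seen. The genes, the lists and the tests were chosen with earlier results of these data known. Arrays carry no counts, so the number of sows limits the precision. Alternatives were another normalization, median centring, a filter on dim probe sets, another variance prior, array weights, other thresholds, no term for the other factor, the median probe set of a gene and leaving out each sow. Leaving out sows 7 and 12 together and the GAPDH covariate were added after seeing the data.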

Additional observations from a re-analysis of the deposited data

Results flagged for a closer look

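In each of the 4 groups of 6 sows (pregnant, non-pregnant, Landrace and Yorkshire), the highest and lowest sow of every gene was set against the rest by Dixon's test at its 95% critical value. Of 128 groups 10 exceeded it, where chance would give about 6.4 for separate groups of like sows. The groups share sows, and each mixes breeds or states of pregnancy, so the 10 cannot be judged against that figure. Non-pregnant sow 7 was high for TGFB1 among non-pregnant sows (6.79, the next at 5.54) and low for BMP4 (6.82, the next at 7.11). Pregnant sow 4 was high for TGFB2 (7.48, the next at 6.82) among pregnant and among Yorkshire sows, and high for BMP4 among Yorkshire sows (7.58, the next at 7.25). Non-pregnant sow 3 was low for TGFBR3 (4.82) among non-pregnant sows (the next at 5.93) and among Yorkshire sows (the next at 5.96), and low for ACVR2A among Yorkshire sows (5.48, the next at 5.78). Non-pregnant sow 9 was high for DKK3 among Landrace sows (8.28, the next at 7.86), and non-pregnant sow 11 was high for SMAD4 among non-pregnant sows (8.59, the next at 8.23).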

How the results depend on the processing

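The 17 called differences between pregnant and non-pregnant sows or between breeds, 7 of the 2 families and 10 of the lists, kept their direction in every setting in which they were fitted. FZD4 stayed called for pregnancy, and SMAD1, DKK3, FZD4 and FZD5 for breed, whichever of the 12 sows was left out. The number of genes higher in pregnant sows, 3, was 6 with array weights, 1 at a threshold of 0.01, 6 at 0.1, 1 (ACVR1) with no breed term, which left FZD4 and TGFBR3 uncalled, and 1 to 5 with 1 sow left out (1 without non-pregnant sow 5, pregnant sow 6 or pregnant sow 10, 5 without pregnant sow 8 or 12). Without sows 7 and 12 together it was 4 (FZD4, TGFB1, ACVR1B and SMAD3), of which only FZD4 was among the 3. That setting called 510 of all genes higher and 786 lower, instead of 310 and 506. With median centring the number higher in pregnant sows was 2 (FZD4 and TGFBR3). The number lower in pregnant sows, 0, was 2 with array weights (FZD2 and FZD6), 1 at a threshold of 0.1, 1 without sows 7 and 12 (FZD6), and 0 to 1 with 1 sow left out. The number higher in Landrace, 0, was 1 with cyclic loess, with median centring, without dim probe sets, with the trended robust prior and with array weights (TGFBR3 each time), 1 with the median probe set (ACVR2A), 1 without sows 7 and 12 (FZD6), 3 at a threshold of 0.1, and 0 to 1 with 1 sow left out. Of all genes 137 were higher in Landrace. Their number was 163 with cyclic loess, 158 with median centring, 122 with the robust prior and 177 with array weights. Without dim probe sets it was 166 of 5100. It was 131 with the median probe set and 87 without sows 7 and 12. A threshold of 0.1 gave 290, and fits without 1 sow gave 78 to 171. The number lower in Landrace, 4, was 0 with the GAPDH covariate, and was within 1.5 times in the other settings, though 3 with no pregnancy term, which left FZD4 uncalled. With no pregnancy term 136 of all genes were called lower in Landrace, instead of 219. Calls within Yorkshire, 0, were 1 with array weights (over all 6765 genes 183 higher and 139 lower), 3 without sows 7 and 12 (324 and 427), and 0 to 3 with 1 sow left out. Within Landrace the calls, 0, were 1 with array weights (193 and 269) and 2 at a threshold of 0.1 (138 and 186). They were 1 without sows 7 and 12 (109 and 150), and 0 to 1 with 1 sow left out. The interaction called 0 of the 32 genes in each setting in which it was fitted; it was not fitted with no term for the other factor or with the GAPDH covariate. Over all genes, array weights called 555 higher and 932 lower in pregnant sows instead of 310 and 506. At a threshold of 0.01 these counts were 81 and 73, and at 0.1 they were 499 and 842. Median centring gave 274 and 599, no breed term 205 and 333, and the GAPDH covariate 230 and 458. Fits without 1 sow called 180 to 429 of all genes higher and 237 to 723 lower. The causes were not tested, except that fewer sows or another threshold are the settings' own construction.

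No paired analysis was made, because the pregnant and non-pregnant sows share no replicate number. The numbers alternate between the states, and each odd number shares a breed with the next even one. The arrays of sows 11 and 12 also correlated most with each other, which held for no other such neighbours. The labels do not say whether neighbouring numbers are pairs, and no such block was fitted. The filter on dim probe sets left out WNT10B, TGFB1, TGFB3, INHBB, BMP7, BMP15, ACVR2A and ACVR2B.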

Other observations

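Of the 16 genes with several probe sets, 3 had probe sets of opposite sign for pregnancy (BMP1, INHBB and TGFBR1) and 6 for breed (FSTL3, FZD6, LRP6, TGFB1, TGFB2 and TGFB3). In 3 genes a dimmer probe set was called where the one standing for the gene was not. A second TGFB2 probe set differed by 0.38 for pregnancy (limma adjusted p = 0.0384), where the first differed by 0.43 (adjusted p = 0.0822). A second ACVR2A probe set was higher in Landrace by 0.45 with no overlap (limma adjusted p = 0.0342), where the first differed by 0.26 (adjusted p = 0.0868). A second BMPR1B probe set was lower in Landrace by -0.53 (limma adjusted p = 0.0410), where the first differed by -0.19 (adjusted p = 0.483). These probe sets were singled out after their values were seen, and which transcripts they cover was not analysed here.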
